A study of Mus musculus with 11 samples.

Results

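The Dlk1-Dio3 locus is an imprinted domain on mouse chromosome 12, and 6 of its genes are described here, out of 55291 rows in the deposited count table. They are Dlk1, Rtl1 and Dio3, which code for proteins, and Meg3, Rian and Mirg, which are long non-coding RNAs. The 6 genes were chosen by name as the standard members of the domain, with earlier results of these data in view, and the choice rests on measured values: 2 tagged cell lines differed in the levels of the non-coding RNAs before any treatment. That line difference is therefore given as a description with no test.

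The cells were E14 mouse embryonic stem cells, grown without feeders in serum, LIF, the GSK inhibitor CHIR99021 and the MEK inhibitor given as PD0325091. In the tagged lines SPT16, which belongs to the histone chaperone FACT, is fused to V5 and to an AID, a degron, so that auxin (3-indoleacetic acid, IAA) triggers loss of the protein. Tagged cells received 500 nM IAA for 24 h (tagged IAA) or the same volume of ethanol (tagged EtOH), and untagged cells received IAA in the same way (untagged IAA). A further label text mentions ethanol for every sample, IAA ones included. The count table holds 10 libraries, of 11 labelled samples: 1 of 10E IAA, 2 of 10E EtOH, 2 of 11D IAA, 2 of 11D EtOH and 3 untagged IAA. The codes 10E and 11D mark the tagged lines in the column names, and could not be tied to the clone numbers of the labels, which describe each tagged line as a clone. The untagged libraries are taken to be the columns coded TIR1, the only code with no ethanol column and with a replicate 3. No untagged ethanol library was analysed here. The labels do not state whether replicates are separate cultures; the spread behind each p-value is that between libraries and may be technical.

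Total counts lay between 3100127 and 13510163 per library, and mitochondrial genes took 1.67 to 3.16% of counts. Supt16 RNA averaged 273 ± 17.4 CPM (the usual depth-scaled count unit, with TMM library sizes) in tagged IAA, 388 ± 21.3 CPM in tagged EtOH and 556 ± 19.6 CPM in untagged IAA (SD, n = 3, 4 and 3), and since the degron acts on the protein this does not check the labels. The 8 embryonic stem cell markers summed to between 2303 and 2508 CPM in tagged IAA, between 6197 and 7841 CPM in tagged EtOH and between 6477 and 7027 CPM in untagged IAA. All 8 were called lower with IAA, among them Nanog (log2 fold change -1.92 ± 0.10) and Esrrb (-1.94 ± 0.12). Over all genes tested, 28.1% were called lower and 29.3% higher. The 7 primitive endoderm markers summed to between 11.7 and 17.8 CPM in tagged IAA, between 3.74 and 8.90 CPM in tagged EtOH and between 3.73 and 7.87 CPM in untagged IAA. Of the 4 that passed the filter on low counts, Dab2 and Pdgfra were called higher, and Gata4 and Gata6 were not called. The 7 trophectoderm markers summed to between 32.3 and 42.5 CPM in tagged IAA, between 22.6 and 39.9 CPM in tagged EtOH and between 26.9 and 33.4 CPM in untagged IAA. Of the 5 that passed the filter, Krt8 and Gata3 were called higher, Eomes was called lower and 2 were not called. Elf5 was at 0 counts in tagged IAA. The 6 fibroblast markers summed to at most 5.42 CPM in any library. Only 3 of them passed the filter on low counts, and none of these was called. The part that these shifts have in the values below was not tested, and in these bulk libraries fewer cells of a type and less RNA per cell cannot be told apart.

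In mice Dlk1, Rtl1 and Dio3 are expressed from the paternal chromosome, while Meg3, Rian and Mirg are expressed from the maternal one, under the control of a differentially methylated region upstream of Meg3. The maternal RNAs lie head to tail on the same strand and are widely regarded as parts of one long transcription unit, whose introns and exons hold many C/D-box snoRNAs and one of the largest mammalian miRNA clusters. In embryonic stem cells and induced pluripotent cells, silencing of the maternal RNAs is a well known form of culture-related variation. The counts here do not separate the parental chromosomes.

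On the mm10 build (GENCODE M21), Dlk1 occupies chr12:109452823-109463336, Meg3 chr12:109541001-109571726, Rian chr12:109603940-109661716, Mirg chr12:109729764-109749460 and Dio3 chr12:110279068-110281097, all on the plus strand. Rtl1 occupies chr12:109589193-109600330 on the minus strand. The annotation names 117 genes in the span of the domain, of which 115 have a row and 79 have at least 1 count over all libraries. They include 90 miRNA and snoRNA rows, 82 of them on the plus strand like Meg3.

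The maternal RNAs are taken to share a start, so the promoter of Meg3 is shown, from 250 bases before to 50 bases after its first RefSeq start (GRCm38.p6, chr12:109540746-109541045, plus strand). Capitals mark a match to TGACGTCA, the cyclic AMP response element, and a match to TGCCGC, the letters bound by ZFP57 when methylated, which occurs here as its reverse complement GCGGCA.
Meg3 promoter: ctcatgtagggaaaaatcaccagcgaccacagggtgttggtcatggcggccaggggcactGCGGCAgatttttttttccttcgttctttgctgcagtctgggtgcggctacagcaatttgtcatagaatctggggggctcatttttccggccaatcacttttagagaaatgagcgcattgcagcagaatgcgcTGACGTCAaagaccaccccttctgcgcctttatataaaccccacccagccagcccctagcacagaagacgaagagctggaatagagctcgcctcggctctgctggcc

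Searched on both strands, TGACGTCA was found in 588 of 32851 RefSeq promoter windows of this length (1.79%), and TGCCGC in 3813 of them (11.6%). The motifs do not overlap each other, and neither was found in the windows of Dlk1, Rian, Mirg or Dio3. The Meg3 window holds 13 CpG dinucleotides, against 0 in the Rian window, 10 in the Mirg window, 25 in the Dio3 window and a median of 7 over all windows. The Mirg window (chr12:109734731-109735030) follows a RefSeq start that lies inside the GENCODE span of Mirg, downstream of the GENCODE start given above. It does not describe the sequence at that GENCODE start. RefSeq has a further Meg3 start, whose window (chr12:109545148-109545447) holds 1 CpG and neither motif. These are matches of letters only.

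Mature sequences of miRNAs along the unit are printed to show which small RNAs the distal part encodes. RefSeq (GRCm38.p6) lists 106 mature miRNAs of 57 plus-strand hairpin genes in the domain, with 97 distinct seeds (bases 2 to 8, in capitals), of which 8 are shared by more than 1 of them. The hairpins of miR-433 and miR-341 lie near the start of the unit, Mir433 within Rtl1 on the opposite strand and Mir341 within the span of Rian. The others shown lie beyond Rian, apart from miR-370, and are paired with a miRNA of the same seed.
miR-433-3p at chr12:109591781-109591802: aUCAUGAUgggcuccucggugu
miR-341-3p at chr12:109611556-109611576: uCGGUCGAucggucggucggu
miR-379-5p at chr12:109709065-109709085: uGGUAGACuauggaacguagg
miR-1193-5p at chr12:109715716-109715735: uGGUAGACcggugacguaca
miR-1193-3p at chr12:109715750-109715770: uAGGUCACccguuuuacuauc
miR-370-5p at chr12:109618270-109618289: cAGGUCACgucucugcaguu
miR-379-3p at chr12:109709102-109709123: uAUGUAACaugguccacuaacu
miR-411-3p at chr12:109710225-109710246: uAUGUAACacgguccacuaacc
miR-376c-5p at chr12:109722733-109722754: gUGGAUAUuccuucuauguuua
miR-376b-5p at chr12:109723471-109723492: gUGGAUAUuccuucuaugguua
miR-453 at chr12:109735669-109735692: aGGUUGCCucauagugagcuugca
miR-496a-5p at chr12:109739132-109739152: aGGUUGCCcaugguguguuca

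Libraries were made from total RNA with a directional RNA library kit, so a count on a hairpin row is a read on the precursor or the primary transcript, and mature miRNAs were not measured.

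Before treatment, the maternal RNAs were abundant in line 11D and scarce in line 10E. Meg3, a nuclear non-coding RNA with growth-restraining activity, averaged 487 ± 43.2 CPM in 11D EtOH and 5.92 ± 2.25 CPM in 10E EtOH (SD, n = 2 each), a ratio of 82.3. Rian, the host RNA of a snoRNA cluster, averaged 773 ± 46.3 CPM in 11D EtOH and 8.36 ± 2.01 CPM in 10E EtOH, a ratio of 92.4. Mirg, the host of the distal miRNAs, averaged 117 ± 1.53 CPM in 11D EtOH and 1.89 ± 0.263 CPM in 10E EtOH, a ratio of 61.9.

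The unnamed non-coding rows between Rian and Mirg followed the same pattern. B830012L14Rik averaged 82.2 CPM in 11D EtOH and 0.772 CPM in 10E EtOH, and Gm37899 averaged 53.6 CPM in 11D EtOH and 0.705 CPM in 10E EtOH. Among 13545 genes with a mean of at least 2 CPM, ordered by the size of the log2 difference between the EtOH means of the lines, Rian was at position 1, Meg3 at 2, B830012L14Rik at 3, Mirg at 4 and Gm37899 at 5. Dio3 was at position 6894, with 3.03 ± 2.76 CPM in 11D EtOH and 2.56 ± 1.40 CPM in 10E EtOH. Untagged IAA cells lay between the lines but on the side of 11D, with 204 ± 5.11 CPM of Meg3, 370 ± 49.6 CPM of Rian and 46.4 ± 5.82 CPM of Mirg (n = 3).

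**Figure D1:**
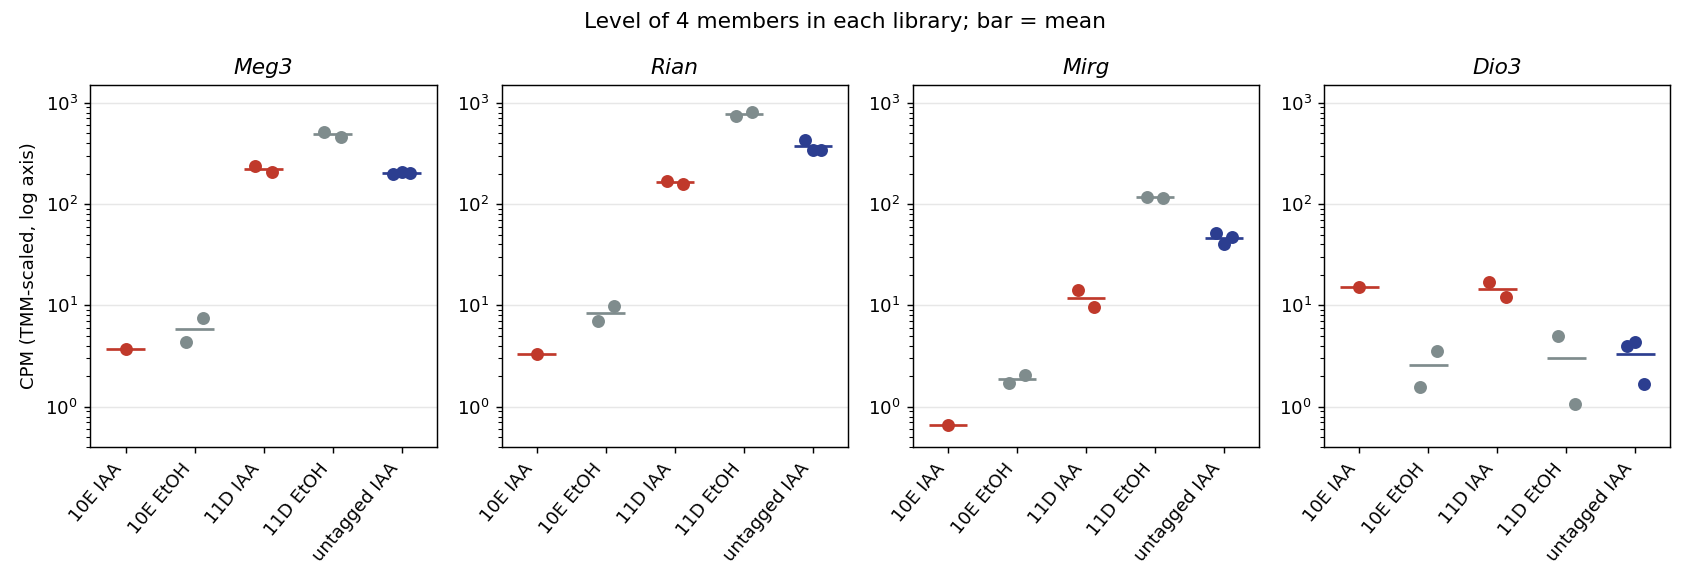
Level of Meg3, Rian, Mirg and Dio3 in each of the 10 libraries, in CPM on a log axis; each point is a library and each bar the mean of its line and treatment. The maternal RNAs of 10E lie far below those of 11D and untagged cells, while Dio3 stands between 12.1 and 17.1 CPM in the 3 tagged IAA libraries and at most at 4.98 CPM in all others.

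With IAA, the 3 maternal RNAs fell and Dio3 rose in the tagged lines fitted jointly, with the line as a term (edgeR quasi-likelihood test, Benjamini-Hochberg over 17904 genes, called at FDR under 0.05). Of the 6 members 4 passed the filter on low counts; 3 of them were called lower, against 28.1% of all genes tested, and 1 was called higher, against 29.3% of all genes. Calls were thus common over all genes in this comparison. Meg3 fell by 1.08 ± 0.14 on the log2 scale (FDR 7.32e-06), Rian by 2.16 ± 0.14 (FDR 6.50e-09) and Mirg by 3.32 ± 0.21 (FDR 4.47e-09), the error being the SE from edgeR. Dio3 rose by 2.59 ± 0.35 (FDR 1.13e-05), against a median over all genes of 0.03. In the authors' deposited table for IAA against EtOH the log2 fold changes are -1.02 for Meg3, -2.08 for Rian, -3.20 for Mirg and 2.50 for Dio3. Scaled by library totals instead of TMM, edgeR called 7713 genes higher and 2851 lower, against 5247 higher and 5034 lower with TMM, and the median moved to 0.36. All 4 members kept their direction and their call under that scaling, with log2 fold changes of -0.76 for Meg3, -1.85 for Rian, -3.00 for Mirg and 2.93 for Dio3.

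In line 11D, where the maternal RNAs are abundant, each one separated the treatments. Meg3 stood at 240 and 208 CPM in 11D IAA, against 517 and 456 CPM in 11D EtOH. Rian stood at 170 and 157 CPM in 11D IAA, against 740 and 805 CPM in 11D EtOH. Mirg stood at 14.2 and 9.57 CPM in 11D IAA, against 118 and 116 CPM in 11D EtOH.

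No 11D IAA library reached the level of an 11D EtOH library for any of the 3 RNAs. The edgeR log2 fold changes were -1.13 ± 0.15 for Meg3 (FDR 5.01e-05), -2.25 ± 0.13 for Rian (FDR 1.49e-07) and -3.38 ± 0.19 for Mirg (FDR 1.39e-07). In this line 3 members were called lower and 1 higher, and 23.1% of all genes tested were called in each direction.

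In line 10E the same RNAs were read from few counts. Meg3 had 17 counts in 10E IAA, against 33 and 76 counts in 10E EtOH. Rian had 15 counts in 10E IAA, against 53 and 99 in 10E EtOH. Mirg had 3 counts in 10E IAA, against 13 and 21 in 10E EtOH.

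The 10E IAA library is also the shallowest of the 3, so the comparison rests on CPM. Meg3 stood at 3.73 CPM in 10E IAA, against 4.32 and 7.51 CPM in 10E EtOH. Rian stood at 3.29 CPM in 10E IAA, against 6.94 and 9.78 CPM in 10E EtOH. Mirg stood at 0.658 CPM in 10E IAA, against 1.70 and 2.07 CPM in 10E EtOH. The single 10E IAA library was thus below both 10E EtOH libraries for each RNA. With 1 library in that group, the spread behind every 10E test comes from the other groups, and this library is assumed to vary as they do. By edgeR's test Rian was lower (log2 fold change -1.37 ± 0.31, FDR 0.00394), whereas Meg3 (-0.71 ± 0.37, FDR 0.152) and Mirg (-1.53 ± 0.64, FDR 0.089) did not pass. The call on Meg3 turned on the controls, since without 10E EtOH replicate 1 it passed (-1.04, FDR 0.0192) and without replicate 2 its change was -0.20 (FDR 0.741). In 10E, 1 member was called lower and 1 higher, against 18.3% lower and 17.1% higher over all genes tested. With library totals, edgeR called 5162 genes higher and 1462 lower in 10E (3064 and 3269 with TMM), and 6105 higher and 2394 lower in 11D (4143 and 4131 with TMM), and no member changed its call.

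The IAA effect in 11D was not shown to differ from that in 10E for any member. The difference of the log2 fold changes, 11D minus 10E, was -0.42 ± 0.42 for Meg3, -0.87 ± 0.37 for Rian, -1.86 ± 0.88 for Mirg and 0.15 ± 0.75 for Dio3, with edgeR FDRs of at least 0.938. Unadjusted, edgeR's p was 0.0349 for Rian and 0.0633 for Mirg. No member was called in either direction, and 0.0% of all genes tested were; at an unadjusted p under 0.05 edgeR had 872 genes of 17904, and DESeq2 called 1 gene.

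Set against untagged cells that also received IAA, the 3 RNAs of line 11D parted. Meg3 stood at 240 and 208 CPM in 11D IAA, against 199, 209 and 203 CPM in untagged IAA, and the ranges overlap. Rian stood at 170 and 157 CPM in 11D IAA, against 427, 339 and 345 CPM in untagged IAA, with no overlap. Mirg stood at 14.2 and 9.57 CPM in 11D IAA, against 51.8, 40.3 and 47.2 CPM in untagged IAA, again with no overlap.

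The edgeR log2 fold changes of 11D IAA over untagged IAA were 0.13 ± 0.13 for Meg3 (FDR 0.411), -1.18 ± 0.13 for Rian (FDR 2.78e-06) and -2.05 ± 0.18 for Mirg (FDR 3.05e-07). Here 2 members were called lower, against 26.7% of the 17439 genes tested, and 1 was called higher, against 28.1%. With library totals Meg3 was also called higher (0.39, FDR 0.00835), where the median of all genes stood at 0.295 and 6582 genes were called higher and 3015 lower (4906 and 4655 with TMM). The 11D EtOH cells had 2.39 times the Meg3, 2.09 times the Rian and 2.52 times the Mirg of untagged IAA cells. Line, tag and IAA all differ there, and without an untagged ethanol library they cannot be told apart. This difference stands beside the comparison above and was not tested. For 10E the comparison with untagged IAA contains the line difference by which the genes were chosen, so its log2 fold changes of -5.77 for Meg3, -6.81 for Rian and -6.10 for Mirg are a description. Nothing is read from the calls on those 3 there, where 20.8% of all genes were called lower and 20.5% higher (with library totals 5539 genes higher and 2030 lower, against 3583 and 3636 with TMM).

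The size of the decrease differed along the unit. In 11D IAA over 11D EtOH the inverse fold change was 2.18 at Meg3, 4.74 at Rian (whose start lies 62.9 kb from that of Meg3), 7.84 at Gm37899 (127.9 kb), 10.9 at B830012L14Rik (154.6 kb) and 10.4 at Mirg (188.8 kb). In 11D IAA over untagged IAA the same rows had inverse fold changes of 0.914, 2.27, 4.56, 5.24 and 4.15. The order along the chromosome was thus kept up to B830012L14Rik in both comparisons. Mirg was below B830012L14Rik in both, and below Gm37899 also against untagged IAA. With their SE, the log2 fold changes of Gm37899, B830012L14Rik and Mirg over 11D EtOH were -2.97 ± 0.26, -3.44 ± 0.19 and -3.38 ± 0.19. Over untagged IAA they were -2.19 ± 0.25, -2.39 ± 0.19 and -2.05 ± 0.18. An order among these rows was not tested. Both comparisons share the 11D IAA libraries and are given side by side only.

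**Figure D2:**
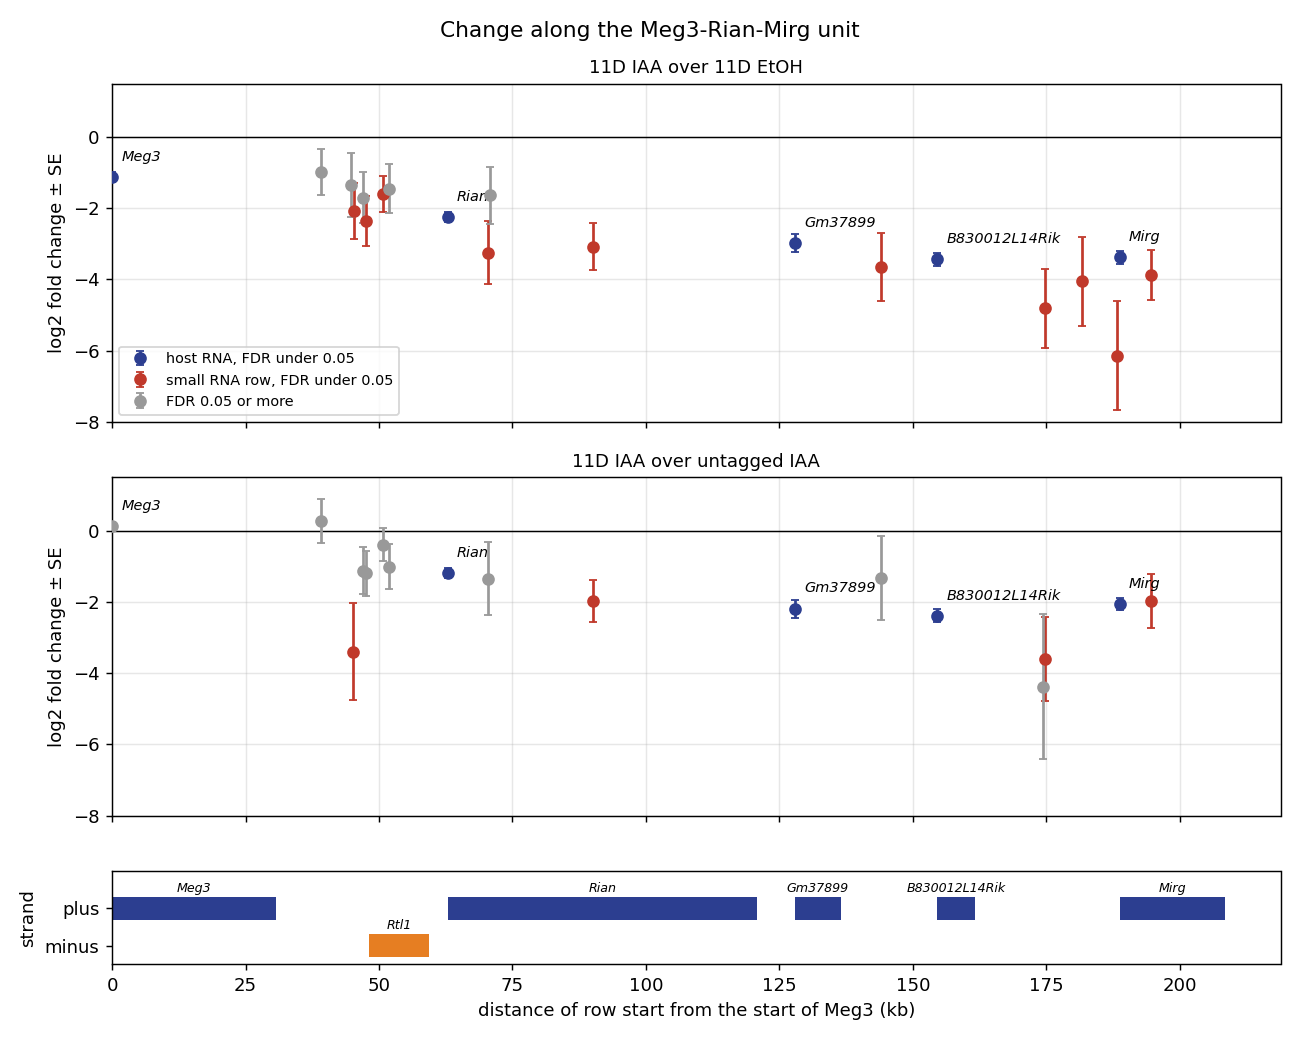
Log2 fold change ± SE of each tested row from Meg3 to the end of Mirg, by the distance of its start from that of Meg3 in kb, for 11D IAA over 11D EtOH (top) and over untagged IAA (middle), with the long RNAs drawn to scale below. In the top panel the values of the host RNAs step down from Meg3 (-1.13) to B830012L14Rik (-3.44), with Mirg at -3.38. The small RNA rows passed the filter mainly through 11D EtOH, where they are high. That filter favours a fall from this group. Neither the falls drawn for these rows nor the colour that marks FDR under 0.05 is read as a result.

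A ratio of counts within a library does not depend on the scaling between libraries. For every 100 counts of Meg3, Mirg had 17.6 counts in 10E IAA, against 39.4 and 27.6 in 10E EtOH. In 11D it had 5.95 and 4.61 counts with IAA, against 22.8 and 25.4 with EtOH. Untagged IAA cells had 26.0, 19.2 and 23.3.

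All 3 tagged IAA libraries were therefore below all 4 tagged EtOH libraries and all 3 untagged libraries. In 11D the exact 95% intervals, which cover counting error only, reached 7.91 and 5.44 at most with IAA and 20.3 and 23.9 at least with EtOH. In 10E IAA, with 3 counts of Mirg, the interval ran from 3.31 to 61.0 and includes both EtOH values. Rian had 88.2 counts for every 100 of Meg3 in 10E IAA, against 161 and 130 in 10E EtOH. In 11D it had 70.7 and 75.9 with IAA, against 143 and 177 with EtOH, and in untagged IAA 215, 162 and 170.

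B830012L14Rik averaged 4.30 ± 1.38 counts for every 100 of Meg3 in tagged IAA and 15.2 ± 2.41 in tagged EtOH, and Gm37899 averaged 4.18 ± 1.64 in tagged IAA and 12.5 ± 6.24 in tagged EtOH (SD, n = 3 and 4). For each of the 4 ratios the tagged IAA and tagged EtOH libraries did not overlap, and the two-sided exact permutation p was 0.0571, the smallest that 3 libraries against 4 can give, and 0.0571 after adjustment over the 4 ratios. This permutation test cannot pass 0.05 with these numbers of libraries. In 10E IAA, Gm37899 and B830012L14Rik each rest on 1 count beside 17 of Meg3 (5.88, interval 0.141 to 37.5). The lowest EtOH value of Gm37899 was 6.58, from 5 counts in 10E EtOH replicate 2. The lack of overlap for Gm37899 therefore turns on single reads. The mean log2 difference for Mirg was -1.84 and became -2.43 without the 10E IAA library.

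**Figure D3:**
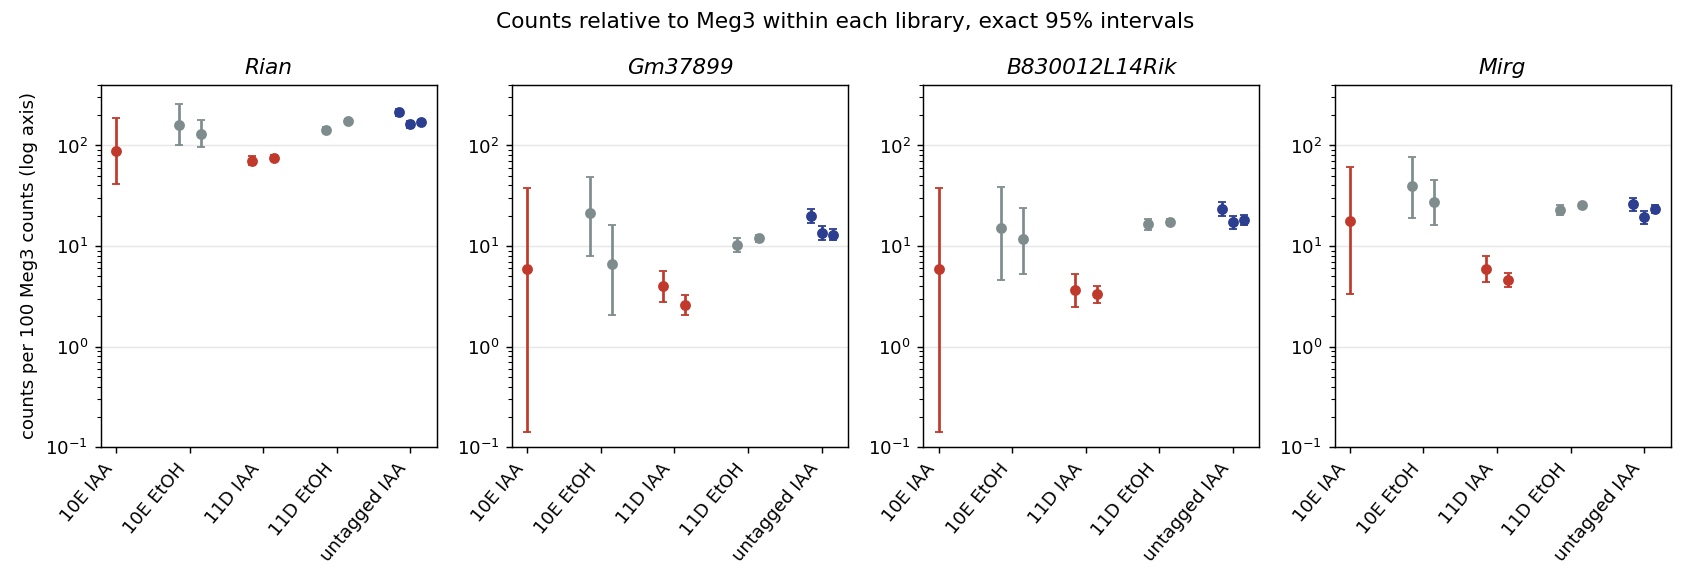
Counts of Rian, Gm37899, B830012L14Rik and Mirg for every 100 counts of Meg3 in each library, on a log axis, with exact 95% intervals for counting error. The 11D IAA libraries lie below the 11D EtOH and untagged IAA libraries in each panel, and the intervals of the 10E libraries are wide.

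Small RNA rows of the plus strand gave a separate reading of the same stretch, though part of their reads may also lie in exons of the host RNAs. By annotation, 9 genes on the same strand, mostly small RNAs, overlap exons of Rian and 9 overlap exons of Mirg. How the authors' counting divided such reads is not given. Of the 17 small RNA rows within Rian, 4 had counts (Mir341, Mir1188, Mir370 and Gm24564), and none of these overlaps a Rian exon. Within Mirg, the overlapping rows with counts were Mir382 (6 counts), Mir3072 (8), Mir412 (3) and Mir369 (3). Of the 82 rows 59 had at least 1 count. The 15 rows that passed the filter did so mainly through 11D EtOH, where they are high, so their single tests are not counted here. The sums over all annotated rows of a stretch are given in their place.

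Summed over stretches defined from the annotation after the values were seen, the 13 rows between Meg3 and Rian had 98 counts in 11D IAA and 242 counts in 11D EtOH, a ratio of 0.307 after TMM scaling. The 17 rows within Rian had 20 counts in 11D IAA and 92 in 11D EtOH, a ratio of 0.165. The 11 rows from the end of Rian to Mir379 had 10 counts in 11D IAA and 69 in 11D EtOH, a ratio of 0.110. The exact 95% intervals of counting error overlap between all neighbouring stretches. In this order they were 0.240 to 0.389, 0.0961 to 0.269 and 0.0504 to 0.214. The 25 rows from Mir379 to the start of Mirg had 30 counts in 11D IAA and 188 in 11D EtOH, a ratio of 0.121.

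The 14 rows within Mirg had 9 counts in 11D IAA and 87 in 11D EtOH, a ratio of 0.0784. The exact 95% interval of counting error was 0.240 to 0.389 for the first stretch and 0.0347 to 0.156 for the last, so these do not overlap. In 11D IAA over untagged IAA the ratios in the same order were 0.580, 0.369, 0.205, 0.206 and 0.226. There the last 3 stretches lay between 0.205 and 0.226, and the intervals of the first (0.449 to 0.744) and the last (0.0971 to 0.470) overlap. In 10E the 5 stretches together held few counts, with none in 10E EtOH over 3 of them.

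Among single hairpins, Mir433, which is transcribed opposite to Rtl1, had 3 and 20 counts in 11D IAA, against 12 and 39 in 11D EtOH and 7, 11 and 14 in untagged IAA. Mir1193, which carries the seed of miR-379-5p, had 1 and 0 counts in 11D IAA, against 8 and 19 in 11D EtOH and 1, 8 and 9 in untagged IAA. Mir453, within Mirg, had 0 and 5 counts in 11D IAA, against 16 and 37 in 11D EtOH and 7, 7 and 7 in untagged IAA. Each of these rows has the most counts in its stretch, and it passed the filter mainly through 11D EtOH. High counts in 11D EtOH are thus favoured by the choice. No fold change is given for these single rows, and no fall is read from them.

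Counts in the domain fell mostly on plus-strand rows. Rtl1, a retrotransposon-derived gene needed in the mouse placenta, had 3 counts over all 10 libraries, 2 in 11D IAA and 1 in 11D EtOH, while the 6 plus-strand miRNA rows within its span held 246. The 8 minus-strand miRNA and snoRNA rows of the domain held 3 counts in all. The strand setting of the counting is not given, and without strand, reads of a gene and its antisense partner could not be told apart. In untagged IAA, Rtl1 had 0 counts over the 3 libraries, which allows a level of up to 0.136 CPM at 3 counts of the total, or 0.167 CPM by the exact two-sided Poisson 95% limit.

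Dlk1, a membrane protein related to the Notch ligands, was also near silence. It had 7 counts over the 3 tagged IAA libraries, 10 over the 4 tagged EtOH libraries and 2 over the 3 untagged libraries. The pooled level was 0.343 CPM in tagged IAA (exact Poisson 95% interval 0.138 to 0.706), 0.289 CPM in tagged EtOH (0.139 to 0.531) and 0.0906 CPM in untagged IAA (0.011 to 0.327), from library totals. The intervals overlap and a difference was not detectable at this depth. Both Dlk1 and Rtl1 failed the filter on low counts, so neither was tested.

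Dio3, the deiodinase that inactivates thyroid hormone, was called higher in both lines, in 10E from 1 IAA library. It stood at 15.3 CPM in 10E IAA, against 1.57 and 3.56 CPM in 10E EtOH. In 11D it stood at 17.1 and 12.1 CPM with IAA, against 4.98 and 1.07 CPM with EtOH. Untagged IAA cells had 3.93, 4.38 and 1.68 CPM.

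Every tagged IAA library was above every other library. The edgeR log2 fold change was 2.52 ± 0.53 in 10E (FDR 0.00273) and 2.67 ± 0.51 in 11D (FDR 0.000816). Against untagged IAA it was 2.31 ± 0.54 in 10E (FDR 0.00309) and 2.19 ± 0.44 in 11D (FDR 0.000679). The size depended on the controls: in 11D it was 3.68 without EtOH replicate 1 and 1.51 without EtOH replicate 2, and in 10E it was 3.28 without EtOH replicate 2. With DESeq2 the adjusted p in 10E was 0.0699 and against untagged IAA 0.0538.

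Dio3 was the only member called higher, and its level before IAA did not follow that of the maternal RNAs: the 11D EtOH libraries, at 4.98 and 1.07 CPM, overlap the 10E EtOH libraries, at 1.57 and 3.56 CPM. Beside it on the minus strand, Dio3os had 2 counts in 10E IAA and 14 in 11D IAA, against 8 in 10E EtOH and 5 in 11D EtOH, and it did not pass the filter. Gm34081, a non-coding row between Dlk1 and Meg3 on the minus strand, had a log2 fold change of 1.28 ± 0.54 with IAA (edgeR FDR 0.0535), and of 1.98 ± 0.52 for 11D IAA over untagged IAA (FDR 0.00503).

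Per kilobase of merged exon, the order of the members changed with IAA. In 11D IAA, Meg3 had 12.4 ± 1.25 CPM per kb, Rian 8.97 ± 0.467, Dio3 7.19 ± 1.74 and Mirg 1.63 ± 0.454. In 11D EtOH, Rian had 42.4 ± 2.54 CPM per kb, Meg3 26.9 ± 2.39, Mirg 16.0 ± 0.21 and Dio3 1.49 ± 1.36 (SD, n = 2 each). Within each of these groups the libraries of neighbours in the order did not overlap.

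In 10E IAA, Dio3 led with 7.56 CPM per kb, followed by Meg3 with 0.206, Rian with 0.180 and Mirg with 0.0902. In 10E EtOH, Dio3 also led with 1.26 ± 0.692, followed by Rian with 0.459 ± 0.11, Meg3 with 0.327 ± 0.125 and Mirg with 0.259 ± 0.0361, and there Meg3 overlapped both Rian and Mirg. In untagged IAA, Rian had 20.3 ± 2.72 CPM per kb, Meg3 11.3 ± 0.282, Mirg 6.37 ± 0.798 and Dio3 1.64 ± 0.714, with no overlap of neighbours. Dlk1 and Rtl1 stayed under 0.08 CPM per kb in every library.

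The nearest genes outside the domain did not share a direction. On the Dlk1 side, of the 5 nearest that passed the filter, Begain (log2 fold change 1.71 ± 0.40), Wdr25 (1.07 ± 0.16) and Wars, a tryptophanyl-tRNA synthetase (0.85 ± 0.11), rose with IAA, while Gm47980 (0.75 ± 0.32, edgeR FDR 0.0565) and Slc25a47 (-0.29 ± 0.35, FDR 0.498) did not pass. On the Dio3 side, Ppp2r5c, a regulatory subunit of protein phosphatase 2A, fell (-0.73 ± 0.10), and Gm19605 (1.12 ± 0.42) and Gm35558 (1.53 ± 0.42) rose. B930059L03Rik (0.85 ± 0.44, FDR 0.108) and Dync1h1 (-0.14 ± 0.10, FDR 0.248) did not pass. Begain lies 384.6 kb before Dlk1 and Ppp2r5c lies 166 kb after Dio3.

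**Figure D4:**
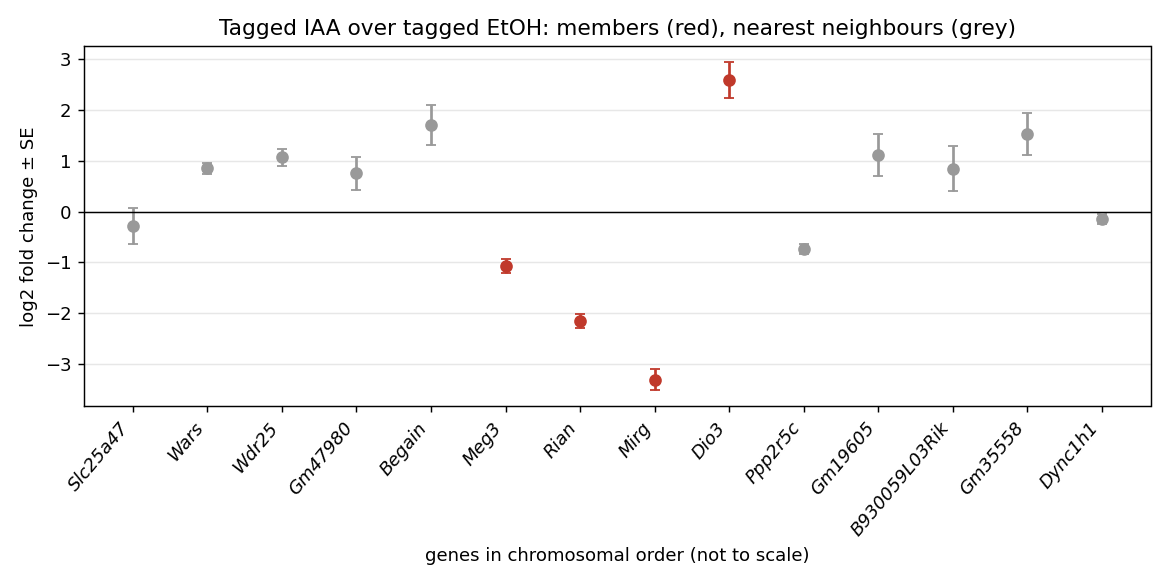
Log2 fold change ± SE of tagged IAA over tagged EtOH for the 4 tested members (red) and the 5 nearest tested genes on each side (grey), in chromosomal order but not to scale. Rian at -2.16 and Mirg at -3.32 lie below all 10 neighbours, and Dio3 at 2.59 lies above them.

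A list of imprinting regulators held mostly genes that fell. Of 21 such genes tested, 15 were lower with IAA, 1 was higher and 5 did not pass, and their median log2 fold change was -0.45, beside 28.1% lower, 29.3% higher and a median of 0.03 over all genes. The smallest FDRs were those of Jarid2 (-1.54 ± 0.09) and Suz12 (-1.56 ± 0.10), both of Polycomb repressive complex PRC2, and the only rise was that of Dppa3 (2.10 ± 0.35), which protects maternal methylation in the early mouse embryo. Zfp57, named here after its values were seen because it reads the motif shown above, fell to 174 ± 18.5 CPM in tagged IAA, against 453 ± 83.0 CPM in tagged EtOH and 497 ± 14.9 CPM in untagged IAA. Its log2 fold change was -1.34 ± 0.11 (edgeR FDR 8.30e-08). These values stand beside those of the domain, and whether they bear on it was not tested.

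Imprinted genes elsewhere were called in both directions, in shares near those over all genes (29.3% higher and 28.1% lower). Of 20 paternally expressed ones tested, 5 rose, 6 fell and 9 did not pass, with a median of -0.10; Nnat (5.02 ± 0.24), whose exons overlap those of another gene, and Peg3 (1.16 ± 0.10) rose, and Plagl1 (-0.76 ± 0.10) and Slc38a4 (-0.81 ± 0.11) fell. Of 14 maternally expressed ones tested, 3 rose, 4 fell and 7 did not pass, with a median of -0.36. There the growth inhibitor Cdkn1c (3.08 ± 0.33) and Zim1 (2.52 ± 0.43) rose, and Ube3a (-1.29 ± 0.10) and Cd81 (-0.84 ± 0.09) fell.

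Genes of the pathways to which the coding members belong were also called in both directions, beside 29.3% higher and 28.1% lower over all genes. Of 23 Notch pathway genes tested, 9 rose, 6 fell and 8 did not pass, with a median of 0.10: the feedback inhibitor Nrarp (2.32 ± 0.23) and the ligand Jag2 (1.63 ± 0.20) rose, and the receptor Notch4 (-2.08 ± 0.19) and the DNA-binding factor Rbpj (-0.89 ± 0.09) fell. Of 12 thyroid hormone genes tested, 2 rose, 4 fell and 6 did not pass, with a median of -0.32. The rises were the thyroid hormone transporter Slc16a10 (1.91 ± 0.24) and the nuclear receptor corepressor Hr (1.40 ± 0.21), and the smallest FDRs among the falls were those of the corepressor Ncor1 (-1.91 ± 0.10) and the coactivator subunit Med1 (-0.91 ± 0.09). Of 6 tested relatives of Rtl1, Rtl10 (1.11 ± 0.16) and Rtl8c (1.52 ± 0.39), which has close copies that could share reads, rose and none fell, with a median of 0.49.

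The genes whose centred log2 CPM over the 10 libraries was nearest to that of Meg3, by root mean square difference among 13544 genes, were Rian (0.522), Gm37899 (0.918), B830012L14Rik (0.930) and Mirg (0.959), and then, outside the domain, Plagl1 (1.23), Magea4 (1.51) and Impact (1.58). The same 3 followed Rian, after the other RNAs of the unit, and for Mirg they were Magea4 (1.13), Plagl1 (1.28) and Olfr814 (1.32). Plagl1 and Impact are imprinted genes on other chromosomes. Plagl1 averaged 253 ± 16.5 CPM in 11D IAA and 442 ± 37.5 CPM in 11D EtOH (n = 2 each), and it had 19.7 CPM in 10E IAA and 30.2 ± 2.15 CPM in 10E EtOH. Impact averaged 131 ± 0.249 CPM in 11D IAA and 223 ± 19.2 CPM in 11D EtOH, and it had 25.2 CPM in 10E IAA and 36.9 ± 9.26 CPM in 10E EtOH.

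Dio3 ranked 12841 or lower in likeness to each maternal RNA. Nearest to Dio3 itself were the channel subunit Cnga4 (0.322), the zinc finger gene Zfp703 (0.361) and the small GTPase Rhob (0.410), none of them in the domain. Cnga4 averaged 12.9 ± 2.31 CPM in tagged IAA, 2.36 ± 1.08 CPM in tagged EtOH and 2.87 ± 0.963 CPM in untagged IAA (n = 3, 4 and 3). Likeness is a description over 10 libraries that share lines and treatments. For the maternal RNAs it is weighted towards their large difference between the tagged lines, the value behind the choice of genes. That these RNAs were nearest to each other, and Dio3 far from them, therefore largely follows from that choice. It is not read as a separate result.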

How the data were processed

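Total RNA (TRIzol, NEBNext Directional kit, per the labels' protocols) was counted per gene symbol. The authors deposited raw read counts; STAR, deepTools and the mm10 build are named in the submitters' processing notes, while for the counter, the annotation and the strand setting the sources used here give nothing. Per the file headers, the authors' deposited table of IAA against EtOH holds a mean signal (normalised count), log2 fold changes with errors, a Wald score and p-values; its design is not given.

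Counts were tested across all genes with edgeR 4.0.16 (R 4.3.3; TMM scaling, expression filter by line and treatment, quasi-likelihood F test, Benjamini-Hochberg, FDR 0.05). DESeq2 1.42.0, other scalings, no filter, a replicate block and leaving out libraries were alternatives. Scripts were tested on simulated data. CPM are TMM-scaled; exon lengths come from GENCODE M21, and 53292 of 55291 row symbols matched it. Exact intervals (scipy 1.17.1) cover counting error only. The members and gene lists were chosen with earlier results of these data known. Named genes outside the domain are the 5 nearest tested genes on each side, the 2 called genes of lowest FDR in each direction of each list, and the 3 most alike genes outside the domain per member of at least 2 CPM. Planned tests of EtOH lines against untagged cells were not used, because they contain the line difference behind the choice. Replicates of a group differed by more than sampling noise. Of 12 libraries in the design text, those not in the table were not analysed here.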

Additional observations from a re-analysis of the deposited data

Results flagged for a closer look

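Rtl1 had 1 count in 11D EtOH replicate 1 and 0 counts in the other 3 tagged EtOH libraries, so the gap of the highest library to the next is the whole range (ratio 1.0, above Dixon's 95% critical value). This rests on a single read. With 1 count in 1 library and 0 in the others the ratio is 1.0 by construction, so nothing is read from this flag.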

How the results depend on the processing

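Over the 6 comparisons, 344 alternative values were computed for Meg3, Rian, Mirg and Dio3: 337 kept the side of the threshold, 5 lost it, 2 gained it and 0 calls reversed. Without the line term, 0 members were called lower with IAA, with FDRs of 0.664 for Meg3, 0.264 for Rian and 0.0674 for Mirg; by construction that fit counts the line difference as spread. With DESeq2, 0 members were called higher in 10E and 0 in 10E IAA against untagged IAA. With library totals, 2 members were called higher in 11D IAA against untagged IAA. Leaving out single libraries gave 1 to 2 members called lower in 10E. The difference of the Dio3 effects between lines, never called, lay between -1.03 and 1.17.

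With a replicate block, Meg3 changed by -1.08, Rian by -2.15, Mirg by -3.30 and Dio3 by 2.48, and no call on a member changed; replicates 1 and 2 of 11D deviated together (r = 0.539 across 9564 genes), but with so few pairs the numbers are not shown to pair the libraries. Leaving out both EtOH libraries in which CT010467.1 took most counts (2.64 and 4.27%), Dio3 changed by 3.48. Over all genes, library totals gave 2851 lower calls in the pooled comparison (5034 with TMM), 5162 higher and 1462 lower in 10E (3064 and 3269), 2394 lower in 11D (4131), 5539 higher and 2030 lower in 10E against untagged (3583 and 3636), and 3015 lower in 11D against untagged (4655). DESeq2 gave 1745 higher in 10E. Without 11D IAA replicate 2, 2302 were higher and 2468 lower in 11D, and 2930 higher and 3076 lower against untagged; without 11D EtOH replicate 2, 2687 were higher in 11D (4143 and 4906 in full). For the line difference, no filter gave 15 higher and 12 lower, and leaving out 10E EtOH replicate 1 gave 2 higher. The mean log2 difference of the Mirg to Meg3 ratio, tagged IAA minus tagged EtOH over both lines, was -1.46 without 11D IAA replicate 2. This alternative was chosen after seeing the data. Depth limits Dlk1, Rtl1 and all 10E values of the maternal RNAs.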
